A study of Mus musculus with 6 samples.

Results

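Ion channel genes of 4 families were followed in HT22 cells after induction of the transcription factor KLF13: potassium channels (symbols starting with Kcn), voltage-gated sodium channels (Scn followed by a number and a or b), TRP channels of the C, M and V groups, and CLC chloride channels and exchangers (Clcn). All rows of the count table with such a symbol were taken, which gave 87 of 29493 genes. Of these 87, 83 encode channel subunits or their auxiliary subunits, and 4 do not: the binding protein gene Trpc4ap, the long noncoding RNA Kcnq1ot1, Trpc5os, a coding gene on the strand opposite Trpc5, and Kcnrg. A mean level of 1 CPM (counts scaled to a common library size) over the 6 libraries was reached by 25 of the 87 (28.7%), against 49.7% of all genes in the table.

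HT22 is a neuronal line derived from mouse hippocampus. One stably transfected line (HT22-TR/TO-V5Klf13-1) was used throughout, in which a tet repressor controls V5-tagged KLF13. Cells received 1 µg/ml doxycycline for 8 hours (Dox, n = 3) or vehicle (n = 3); both groups carry the transgene, and since doxycycline was not given to cells without it, the drug and KLF13 cannot be told apart here. Total counts were 41595045, 48171814 and 45496310 in the Dox libraries, against 38566798, 42960225 and 52930384 in the vehicle libraries. The labels do not say whether samples of a group were separate cultures, so the p-values below speak only of differences among these 6 samples, and part of their spread may be technical. Klf13 itself held 184 to 205 CPM in Dox libraries, against 36.1 to 39.1 CPM in vehicle libraries. Of 13 neuron markers listed, 9 had a row in the count table, while Rbfox3, Snap25, Nefl and Nefm had none. Of the 9, 4 reached 1 CPM and Grin1 lay under 0.1 CPM, and of 6 tested, 3 fell and 1 rose. The summed level of these neuron markers was 26.6 to 29.1 CPM with Dox, against 85.9 to 87.1 CPM with vehicle. Of 8 fibroblast markers, 7 reached 1 CPM, and the 8 summed to 8179 to 8559 CPM with Dox, against 10016 to 10543 CPM with vehicle. The part of cell state in the channel results was not tested, and fewer expressing cells cannot be told apart from less RNA per cell.

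Ion channels are membrane pores that set the resting potential, shape action potentials and move ions between cell compartments. Potassium channels repolarise neurons and hold them near rest, voltage-gated sodium channels carry the rising phase of the action potential, TRP channels are mostly non-selective cation channels, and CLC proteins are either plasma membrane chloride channels or chloride/proton exchangers of endosomes and lysosomes. KLF13 binds GC-rich and CACCC-type elements through its zinc fingers and recruits the SIN3 corepressor.

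The sequences show windows at RefSeq starts of some channel genes that fell or rose. Windows of 300 bases, from 250 before to 50 after a RefSeq gene start (GRCm38.p6), are given for the channel genes of at least 1 CPM with the 3 largest falls and the 3 largest rises among those with an entry in the RefSeq promoter table. Letters are lower case except matches to GGGCGG (a GC box), GGGTGG or GGGTGTGG (CACCC-type elements read on the other strand), on either strand; each motif was counted separately, also where matches overlap. Clcn6, Kcnn4, Kcnj15 and Scn2a windows lie within 10 bases of the GENCODE M21 gene start. The Kcnh2 window lies 22013 bases inside the gene, at another RefSeq start, and the Kcnt2 window 440 bases upstream. Kcnd1, the largest fall, and Trpm4 had no entry, and Kcna4 and Kcnh7 were left out because they lay under 1 CPM.

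Kcnh2, chr5:24329542-24329841, minus strand: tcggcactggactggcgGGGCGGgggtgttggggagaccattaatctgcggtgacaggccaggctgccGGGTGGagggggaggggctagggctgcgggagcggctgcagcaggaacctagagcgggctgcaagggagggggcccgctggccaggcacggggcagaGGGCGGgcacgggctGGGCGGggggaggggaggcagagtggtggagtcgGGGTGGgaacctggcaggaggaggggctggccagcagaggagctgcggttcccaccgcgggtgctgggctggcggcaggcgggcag
Clcn6, chr4:148038764-148039063, minus strand: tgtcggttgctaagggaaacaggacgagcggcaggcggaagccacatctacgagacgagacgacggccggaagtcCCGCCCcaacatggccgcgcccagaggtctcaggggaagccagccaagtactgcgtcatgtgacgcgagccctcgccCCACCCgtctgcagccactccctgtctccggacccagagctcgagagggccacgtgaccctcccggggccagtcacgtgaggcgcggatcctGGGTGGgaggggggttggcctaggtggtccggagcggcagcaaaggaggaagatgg
Kcnn4, chr7:24370013-24370312, plus strand: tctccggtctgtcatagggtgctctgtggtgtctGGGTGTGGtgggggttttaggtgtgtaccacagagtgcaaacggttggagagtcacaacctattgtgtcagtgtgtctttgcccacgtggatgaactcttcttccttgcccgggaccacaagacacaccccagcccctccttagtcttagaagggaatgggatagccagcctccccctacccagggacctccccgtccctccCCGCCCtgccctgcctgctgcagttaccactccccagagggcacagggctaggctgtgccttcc
Kcnt2, chr1:140245468-140245767, plus strand: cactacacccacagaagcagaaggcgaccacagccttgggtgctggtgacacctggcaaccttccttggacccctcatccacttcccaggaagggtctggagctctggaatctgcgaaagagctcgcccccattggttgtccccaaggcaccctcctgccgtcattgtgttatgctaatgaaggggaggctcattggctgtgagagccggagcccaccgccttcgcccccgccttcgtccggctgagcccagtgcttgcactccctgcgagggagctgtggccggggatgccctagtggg
Kcnj15, chr16:95257308-95257607, plus strand: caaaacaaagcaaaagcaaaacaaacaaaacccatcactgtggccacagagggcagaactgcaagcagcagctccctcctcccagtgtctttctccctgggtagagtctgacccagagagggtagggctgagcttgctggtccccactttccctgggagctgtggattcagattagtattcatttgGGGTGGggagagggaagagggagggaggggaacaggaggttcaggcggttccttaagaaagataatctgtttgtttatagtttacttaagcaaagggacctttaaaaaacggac
Scn2a, chr2:65620519-65620818, plus strand: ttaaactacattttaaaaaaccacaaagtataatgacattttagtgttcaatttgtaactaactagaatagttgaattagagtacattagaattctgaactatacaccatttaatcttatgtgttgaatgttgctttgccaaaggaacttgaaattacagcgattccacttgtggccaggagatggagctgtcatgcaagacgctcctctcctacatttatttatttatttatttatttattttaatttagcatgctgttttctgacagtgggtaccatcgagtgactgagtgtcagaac

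The windows of the falling genes Kcnh2, Clcn6 and Kcnn4 held 3, 1 and 1 GC boxes and had a GC content of 74.3%, 67.3% and 59.7%. The windows of the rising genes Kcnt2, Kcnj15 and Scn2a held 0 GC boxes each and had a GC content of 62.7%, 49.7% and 33.0%. Of the 8 channel genes that fell, 5 had an entry, and these 5 include the Kcnh2 window inside its gene. Over all channel genes with an entry, the GC box was present in 5 of 5 that fell and 2 of 8 that rose. It was in 4 of 16 that did not pass the test, in 14 of 37 untested and in 37.9% of the windows of all channel genes. Among all tested genes with a window it was present in 62.8%, in 75.6% of those that fell and in 56.0% of those that rose. It was in 35.7% of all 32851 windows of the promoter table. The GGGTGG element was in 4 of 5 falling, 3 of 8 rising, 8 of 16 not passed and 24 of 37 untested channel genes. It was in 59.1% of the windows of all channel genes, in 41.5% and 30.6% of those of all falling and rising tested genes, and in 31.5% of all windows. GGGTGTGG was in 2 of 5 falling and 0 of 8 rising channel genes, and in 3.56% of all windows. These are matches of letters and not binding sites, and the rising genes with a GC box are Kcnh7 with 4 and Clcn5 with 1.

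Across the 4 families about as many genes rose as fell, and with the scaling used here their shares were close to those of all genes. Of the 87, 40 had counts enough to be tested by edgeR's quasi-likelihood test. At an adjusted p under 0.05, 9 of the 40 fell (22.5%), 10 rose (25%) and 21 did not pass. Over all 18067 genes tested, 28.8% fell and 25.9% rose. With upper-quartile scaling the split was 8 lower and 14 higher among the members, and 4457 lower and 6246 higher among all genes, against 5203 lower and 4687 higher with the TMM scaling used here. Among the 25 members of at least 1 CPM, 8 fell (32%) and 7 rose (28%), against 33.1% lower and 29.8% higher among all tested genes of at least 1 CPM. Of the 15 members tested under 1 CPM, 1 fell, 3 rose and 11 did not pass, with log2 fold changes of -0.28 to 0.81 in those 11. Among all tested genes under 1 CPM, 10.6% fell and 9.35% rose. Dox and vehicle libraries did not overlap in 9 tested members that were lower and 12 that were higher with Dox (22.5% and 30%), against 32.2% and 31.8% of all tested genes. At 2-fold or more, 6 of the 40 fell and 2 rose (15% and 5%), against 7.51% and 1.74% of all tested genes. Both of these rises, Kcnh7 and Kcnk9, lay under 1 CPM, and the largest rise among members of at least 1 CPM was 1.72-fold. The median log2 fold change of the 40 was 0.19 and that of all tested genes 0.018. Of the 15 members tested under 1 CPM, 12 had a positive log2 fold change. At 1 CPM or more the median was 0.14 for members, 0.061 for channel subunits alone and 0.013 for all tested genes. The 9 falls, 1 of them under 1 CPM, had a median of -1.46 on the log2 scale. The 10 rises, 3 of them under 1 CPM, had a median of 0.73. In all tested genes these medians were -0.60 and 0.42. The summed level of the 83 channel genes was 620, 668 and 597 CPM in the Dox libraries, against 630, 638 and 637 CPM in the vehicle libraries, and the vehicle sums lay within the range of the Dox sums.

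**Figure D1:**
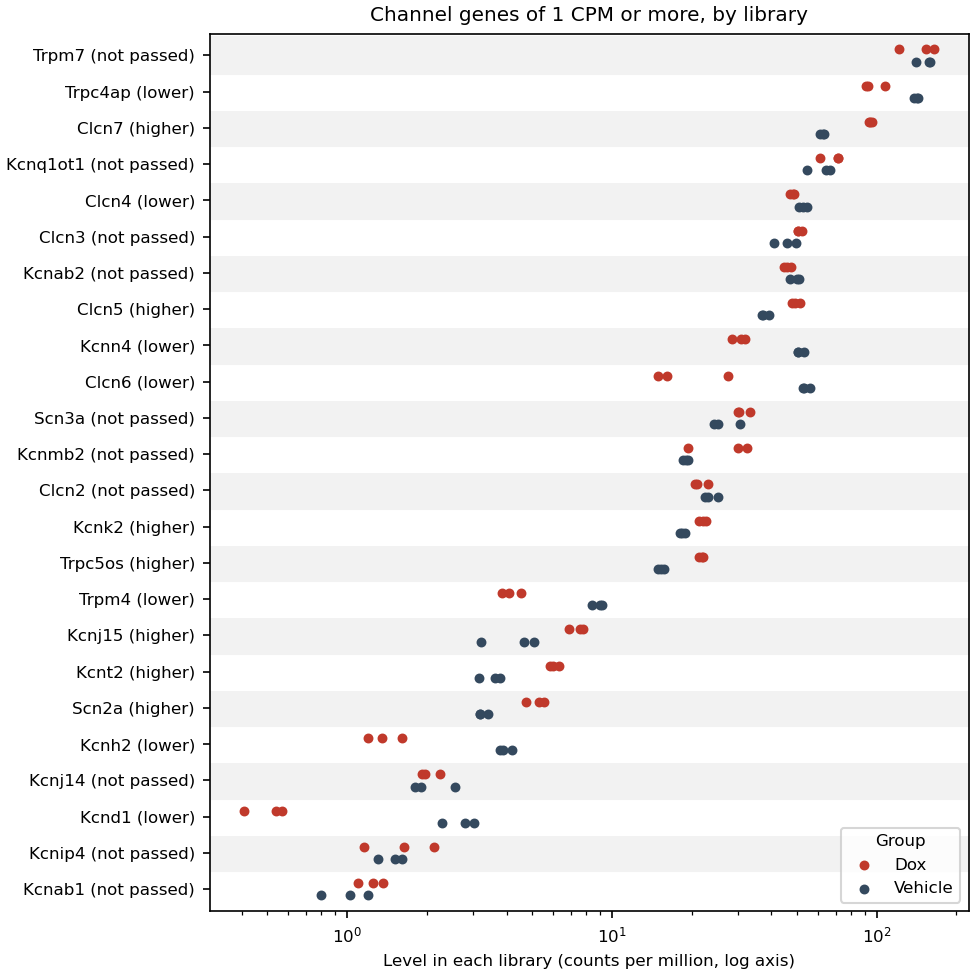
Level of 24 channel-family genes of at least 1 CPM in each library (CPM, log axis), 3 Dox points above 3 vehicle points per row, with the result of the test beside the symbol. Trpm7 is at the top near 150 CPM and overlaps between groups, while Kcnd1 lies at 0.408 to 0.567 CPM in Dox libraries, against 2.28 to 3.02 CPM in vehicle libraries.

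Voltage-gated potassium channel genes held both the largest fall and the largest rise on the log2 scale. Of 15 pore-forming members in the table, 6 were tested, of which 3 fell, 1 rose and 2 did not pass. Kcnd1 encodes a Shal-type subunit of the A-type current, a fast-inactivating potassium current below spike threshold. It held 0.540, 0.567 and 0.408 CPM in the Dox libraries, against 3.02, 2.28 and 2.78 CPM in the vehicle libraries. All Dox libraries lay far under all vehicle libraries, a 5.30-fold fall (log2 fold change -2.41 ± 0.17 SE, edgeR adjusted p = 4.7e-05). The depth behind it is small, with 19 to 28 reads per Dox library and 95 to 144 per vehicle library. Kcnd1 lies at chromosome X, 7822289 to 7838280, and shares no exonic sequence with another gene (GRCm38, GENCODE M21). Kcnh2, the ERG channel gene whose current repolarises the heart and damps neuronal firing, held 1.198, 1.36 and 1.61 CPM with Dox, against 3.76, 4.20 and 3.88 CPM with vehicle. The groups were separate and the fall was 2.84-fold (log2 -1.503 ± 0.12 SE, edgeR adjusted p = 8.2e-05). Kcna4, a Shaker-type subunit that also gives an A-type current, was under 1 CPM, with 11, 12 and 14 reads in Dox libraries, against 29, 37 and 33 in vehicle libraries. It fell by 1.499 ± 0.20 on the log2 scale (SE, edgeR adjusted p = 8.5e-04). Kcnd3, another A-type gene, was higher in every Dox library than in any vehicle library but did not pass (log2 0.63 ± 0.30 SE, edgeR adjusted p = 0.12).

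Kcnh7, an ERG-family relative of Kcnh2, moved the other way. It held 33, 29 and 38 reads with Dox, against 12, 12 and 15 with vehicle, or 0.726 ± 0.122 and 0.299 ± 0.0170 CPM (SD, n = 3 each). The rise was 2.42-fold (log2 1.28 ± 0.19 SE, edgeR adjusted p = 0.0015), and all Dox libraries were above all vehicle libraries. The level per length stayed below that of Kcnh2 in both groups: 0.0545 and 0.329 CPM per kb of transcript for Kcnh7 and Kcnh2 with Dox, against 0.0224 and 0.935 with vehicle. Part of Kcnh7's exons, 696 bases, overlaps Gca on the opposite strand, and the strand setting of the counts is not given in the sources used here.

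None of the 5 tested auxiliary potassium channel genes passed the test. Kcnab2, a cytoplasmic beta subunit with an aldo-keto reductase fold, held 46.0 ± 1.495 CPM with Dox and 49.2 ± 1.99 CPM with vehicle (SD, n = 3 each), with overlapping groups. Its relatives Kcnab1 and Kcnab3 and Kcnip4, a calcium-binding modulator of A-type channels, had log2 fold changes of 0.29, 0.69 and 0.16. Kcnmb2, a beta subunit that inactivates the large-conductance calcium-activated channel, differed between Dox libraries. It held 19.4, 32.5 and 29.9 CPM with Dox, against 19.0, 19.4 and 18.6 CPM with vehicle. Dox replicate 1 lay within the vehicle range and the other Dox libraries lay above it, and the difference did not pass (log2 0.52 ± 0.19 SE, edgeR adjusted p = 0.052). Without Dox replicate 1 it was 0.72 ± 0.056 (edgeR adjusted p = 3.1e-04). With any other library left out it was 0.378 to 0.533 and did not pass (edgeR adjusted p = 0.11 to 0.14).

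Of 4 tested calcium- or sodium-activated potassium channel genes, 1 fell, 2 rose and 1 did not pass. Kcnn4, the intermediate-conductance calcium-activated channel of lymphocytes, erythrocytes and dividing cells, had the highest level of all potassium channel pore genes. It held 31.8, 30.8 and 28.5 CPM with Dox, against 50.3, 50.6 and 53.4 CPM with vehicle, with no overlap. It fell 1.70-fold (log2 -0.76 ± 0.052 SE, edgeR adjusted p = 3.8e-05). Per kb of transcript its level was 15.3 CPM with Dox and 25.9 CPM with vehicle. Kcnn4 lies at chromosome 7, 24370263 to 24386690. Kcnt2, a sodium-activated channel, held 6.29, 5.82 and 6.02 CPM with Dox, against 3.76, 3.15 and 3.61 CPM with vehicle. That 1.72-fold rise (log2 0.78 ± 0.082 SE, edgeR adjusted p = 2.7e-04) was the largest among members of at least 1 CPM. Kcnn1, a small-conductance calcium-activated channel, rose at a mean level just under 1 CPM, with 54, 46 and 72 reads in Dox libraries, against 25, 28 and 41 in vehicle libraries (log2 0.81 ± 0.21 SE, edgeR adjusted p = 0.018). The Kcnn1 call was lost with the DESeq2 Wald test (adjusted p = 0.057) and without vehicle replicate 1 or 2 (edgeR adjusted p = 0.056 and 0.057), and without Dox replicate 1 it was at the threshold (0.05). Kcnt2 and Kcnn1 share 102 and 132 exonic bases with other annotated genes on the opposite strand. Kcnma1, the large-conductance channel itself, did not pass (0.81 ± 0.34, edgeR adjusted p = 0.087).

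The resting-current channels that passed all rose. Among inward rectifiers, which pass potassium more easily into the cell than out of it, 2 of 8 were tested. Kcnj15 held 6.91, 7.56 and 7.76 CPM with Dox, against 4.64, 3.22 and 5.07 CPM with vehicle, a rise of 0.78 ± 0.165 on the log2 scale (SE, edgeR adjusted p = 0.0071). The groups did not overlap, though vehicle replicate 2 was lower than the other vehicle libraries, and without it the rise was 0.61 ± 0.082. Kcnj14 did not pass, with 2.04 ± 0.167 CPM with Dox and 2.09 ± 0.416 CPM with vehicle (SD, n = 3 each). Among tandem-pore (Kcnk) channels, which carry background potassium current, 2 of 8 were tested and both rose. Kcnk2, a channel opened by stretch and lipids, held 22.6, 21.4 and 22.1 CPM with Dox, against 18.9, 18.1 and 18.4 CPM with vehicle (log2 0.26 ± 0.044 SE, edgeR adjusted p = 0.0026). The groups were separate, but this is the smallest called rise of the members, and it did not pass against a fold change of 1.2 (adjusted p = 0.54). Kcnk2 shares 604 exonic bases with A430027H14Rik on the opposite strand, and Kcnj15 shares 333 with Gm49643, also on the opposite strand. Kcnk9, an acid-sensitive channel, rested on 19, 16 and 17 reads with Dox, against 9, 5 and 9 with vehicle (log2 1.09 ± 0.30 SE, edgeR adjusted p = 0.020). That call was lost with the DESeq2 Wald test (adjusted p = 0.15) and without Dox replicate 1 or 3 or vehicle replicate 2 or 3 (edgeR adjusted p = 0.054 to 0.072).

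**Figure D2:**
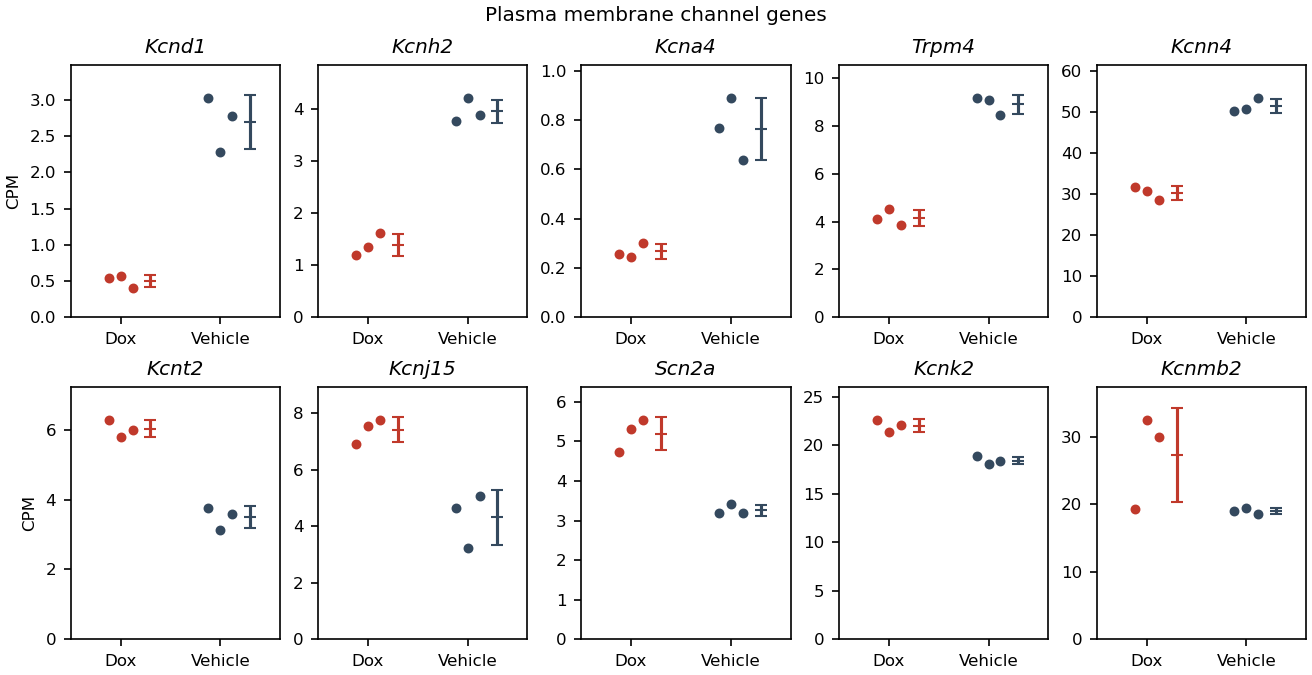
Level in each library of 10 plasma membrane channel genes (CPM, each panel from 0), with 3 Dox points left of 3 vehicle points and the mean ± SD beside each group. In the upper row all Dox points lie under all vehicle points; in the lower row they lie above them for Kcnt2, Kcnj15, Scn2a and Kcnk2, and Kcnmb2 has 1 Dox point at 19.4 CPM within the vehicle range.

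Among sodium channel alpha subunits, which form the pore, 5 of 7 were tested, of which 1 rose and 4 did not pass. Scn2a, the alpha subunit of axons and axon initial segments early in development, held 4.74, 5.31 and 5.55 CPM with Dox, against 3.18, 3.41 and 3.18 CPM with vehicle. That was a 1.596-fold rise with separate groups (log2 0.67 ± 0.079 SE, edgeR adjusted p = 4.7e-04). Scn3a, an alpha subunit best known from embryonic brain, was the most abundant sodium channel gene. It held 29.8, 33.2 and 30.3 CPM with Dox, against 24.2, 30.4 and 25.1 CPM with vehicle, and the groups overlapped through vehicle replicate 2 (log2 0.23 ± 0.096 SE, edgeR adjusted p = 0.091). Without vehicle replicate 2 the difference was 0.33 ± 0.062 (edgeR adjusted p = 0.0079). With any other library left out it was 0.162 to 0.258 and did not pass (edgeR adjusted p = 0.11 to 0.23).

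Scn3a, Scn2a, Scn1a and Scn9a lie in this order in a cluster on chromosome 2, between 65457118 and 66634962, with Scn2a on the plus and the others on the minus strand. Within this cluster the levels ranged widely: per kb of transcript Scn3a, Scn2a, Scn1a and Scn9a had 3.25, 0.582, 0.0538 and 0.0461 CPM with Dox, against 2.78, 0.365, 0.0659 and 0.0431 CPM with vehicle. Their log2 fold changes were 0.23 ± 0.096, 0.67 ± 0.079, -0.28 ± 0.24 and 0.079 ± 0.21 (SE), so of these Scn2a passed and the others did not. Whether their changes differ from each other was not tested. Scn11a, an alpha gene of sensory neurons on another chromosome, did not pass either (0.46 ± 0.52).

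Among TRP genes, TRPM members carried nearly all the counts. None of 4 TRPC and 6 TRPV genes had counts enough for the test. The highest TRPC gene was Trpc5, with 0 to 4 reads in Dox libraries and 4 to 6 in vehicle libraries, and the highest TRPV gene the temperature-sensitive channel Trpv3, with 5 to 12 reads with Dox and 3 to 9 with vehicle. Trpm7, a channel fused to a kinase and needed for magnesium entry, was the highest of the 87 genes in CPM. It held 154, 165 and 121 CPM with Dox, against 158, 141 and 159 CPM with vehicle, and the groups overlapped (log2 -0.060 ± 0.12 SE, edgeR adjusted p = 0.70). Trpm4, a sodium-permeable channel opened by intracellular calcium, held 4.09, 4.52 and 3.85 CPM with Dox, against 9.15, 9.05 and 8.45 CPM with vehicle. It fell 2.14-fold with separate groups (log2 -1.10 ± 0.076 SE, edgeR adjusted p = 4.3e-05), and lies at chromosome 7, 45302632 to 45333780. Trpm1, Trpm3 and Trpm5 were under 1 CPM and did not pass.

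The CLC family held the smallest p-value of the members, that of Clcn7, and its intracellular exchangers did not move together. Of 7 tested Clcn genes, 2 rose, 2 fell and 3 did not pass. Clcn7, the chloride/proton exchanger of lysosomes, held 93.4, 95.6 and 94.6 CPM with Dox, against 60.9, 62.6 and 63.5 CPM with vehicle. The libraries of each group lay close together and far from the other group, a 1.52-fold rise (log2 0.60 ± 0.028 SE, edgeR adjusted p = 8.9e-06). Ostm1, which encodes the beta subunit that the lysosomal exchanger needs for stability, rose too: it held 75.6, 78.2 and 76.4 CPM with Dox, against 45.0, 44.8 and 44.7 CPM with vehicle (log2 0.78 ± 0.028 SE, edgeR adjusted p = 3.7e-06). Clcn5, an exchanger of early endosomes known from proximal tubule, held 47.8, 51.4 and 49.3 CPM with Dox, against 36.8, 39.1 and 37.3 CPM with vehicle (log2 0.39 ± 0.042 SE, edgeR adjusted p = 3.1e-04), again without overlap.

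Clcn6, the late endosomal exchanger found mainly in neurons, fell. It held 16.1, 27.5 and 14.9 CPM with Dox, against 52.6, 55.9 and 53.0 CPM with vehicle. All Dox libraries were lower than all vehicle libraries, with Dox replicate 2 above the other Dox libraries. The fall was 2.76-fold (log2 -1.46 ± 0.23 SE, edgeR adjusted p = 0.0019), and without Dox replicate 2 it was -1.79 ± 0.055 on the log2 scale. Per kb of transcript, Clcn6 and Clcn4 had 3.75 and 10.4 CPM with Dox, against 10.4 and 11.4 CPM with vehicle. Clcn6 lies at chromosome 4, 148004259 to 148038821, without exonic overlap. Clcn4, an endosomal exchanger, held 48.1 ± 0.983 CPM with Dox and 52.7 ± 1.94 CPM with vehicle (SD, n = 3 each). This fall of 0.13 ± 0.038 on the log2 scale (SE, edgeR adjusted p = 0.024) was the smallest called change among the members. It was lost with upper-quartile scaling (-0.040, adjusted p = 0.37), with a transcript length offset (-0.026, 0.53), with no filter (0.066), and without Dox replicate 1 or 2 or vehicle replicate 1 or 2 (edgeR adjusted p = 0.054 to 0.078). It also shares 985 exonic bases with Gm45631 on the opposite strand. Clcn3, another endosomal exchanger, was higher in every Dox library (50.3 to 52.4 CPM) than in any vehicle library (41.1 to 49.8 CPM), yet did not pass (log2 0.16 ± 0.071 SE, edgeR adjusted p = 0.097). Without vehicle replicate 2 the Clcn3 difference was 0.23 ± 0.057 (edgeR adjusted p = 0.022), and without vehicle replicate 1 it was 0.092 ± 0.05 (0.18). Clcn2, the plasma membrane chloride channel opened by hyperpolarisation, held 21.6 ± 1.32 CPM with Dox and 23.6 ± 1.41 CPM with vehicle (SD, n = 3 each) and did not pass. Clcn1, the skeletal muscle channel, was at 0.563 ± 0.150 CPM with Dox and 0.574 ± 0.171 CPM with vehicle (SD, n = 3 each).

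**Figure D3:**
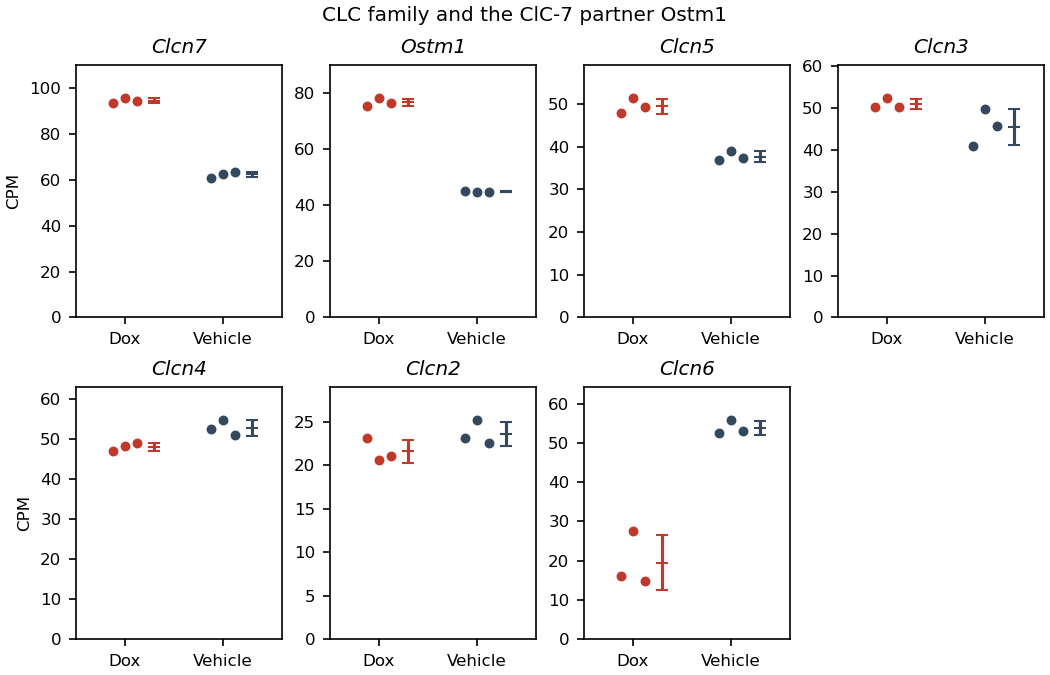
Level in each library of 6 CLC genes and Ostm1 (CPM, each panel from 0), with 3 Dox points left of 3 vehicle points and the mean ± SD beside each group. All Dox points of Clcn7 and Ostm1 lie above all vehicle points, and Clcn6 falls to 14.9 to 27.5 CPM with Dox, against 52.6 to 55.9 CPM with vehicle.

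Of the members that are not channel subunits, Trpc4ap and Trpc5os passed in opposite directions. Trpc4ap, an adaptor that binds a TRP channel and serves a cullin ubiquitin ligase, held 108, 92.7 and 91.4 CPM with Dox, against 143, 142 and 138 CPM with vehicle (log2 -0.53 ± 0.066 SE, edgeR adjusted p = 5.9e-04). Trpc5os held 21.7 ± 0.392 CPM with Dox and 15.3 ± 0.404 CPM with vehicle (SD, n = 3 each), with no overlap (log2 0.51 ± 0.043 SE, edgeR adjusted p = 1.1e-04). It lies within Trpc5 on the other strand, while Trpc5 itself had at most 6 reads in any library. Kcnq1ot1, the imprinted antisense RNA within Kcnq1, overlapped between groups at 61.3 to 71.7 CPM with Dox and 54.7 to 66.4 CPM with vehicle (log2 0.14 ± 0.094 SE, edgeR adjusted p = 0.26), and its host Kcnq1 was too low to be tested. With the transcript length offset the Kcnq1ot1 difference was 0.45 ± 0.064 (edgeR adjusted p = 0.0011).

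**Figure D4:**
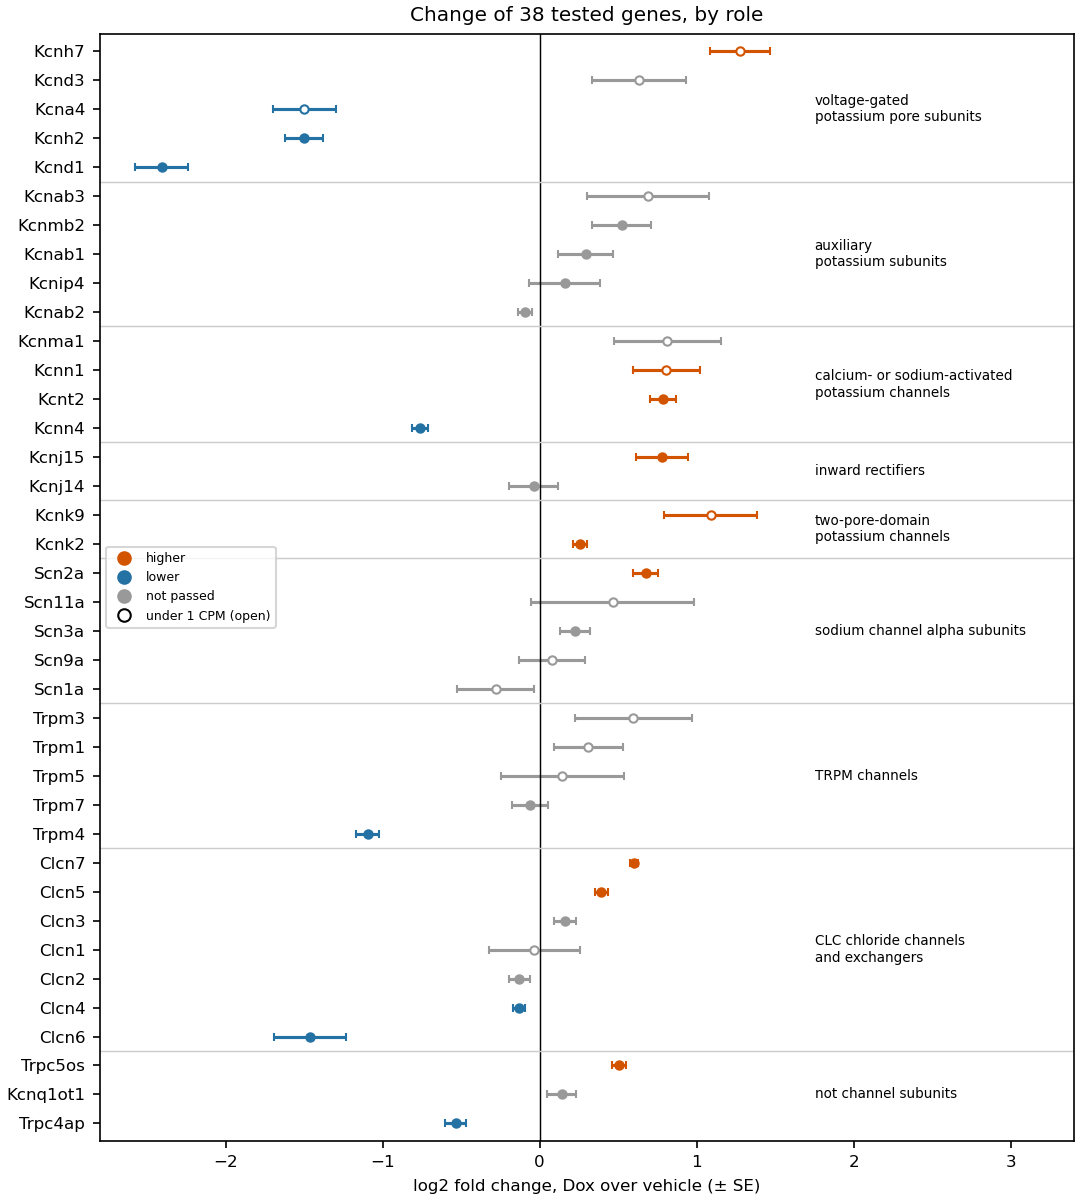
log2 fold change (Dox over vehicle) with its standard error for 38 of the 40 tested genes, grouped by role, coloured by the result of the test, with open points for genes under 1 CPM. Voltage-gated potassium genes run from -2.41 for Kcnd1 to 1.28 for Kcnh7, and CLC genes from -1.46 for Clcn6 to 0.60 for Clcn7.

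In the table deposited by the authors, 15 of the 87 genes are called at an adjusted p under 0.01, 8 lower and 7 higher, against 26.1% of all genes in that table. For 40 of the 87 genes that table holds no adjusted p, and these count as not called. Fewer members than genes of the whole table reach 1 CPM (28.7% against 49.7%), so the 15 of 87 and the 26.1% are not at like levels. All 15 were also past the edgeR test with the same sign. Clcn4, Kcnn1, Kcnk9 and Kcnh7 passed by edgeR at an adjusted p under 0.05 and are not called in the authors' deposited table at 0.01. The adjusted p in that table was 0.036 for Clcn4 and 0.013 for Kcnh7, which lie under the edgeR threshold. It was 0.057 for Kcnn1 and 0.15 for Kcnk9, which lie above both thresholds. For Kcnd1 the authors' deposited table gives a log2 fold change of -2.07 ± 0.26 and for Kcna4 -1.10 ± 0.34. The DESeq2 fit run here on the same counts gave -2.417 and -1.515, and why the deposited values are smaller in size was not tested.

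Among the channel genes, those with GC-poor and longer transcripts tended to lie higher with Dox. The median GC content of the longest transcript was 56.3% in the 8 channel genes that fell and 46.5% in the 9 that rose, against 50.7% and 48.2% in all tested genes that fell and rose. Across the 37 tested channel genes the correlation of log2 fold change with transcript GC content was -0.48 (Pearson) and -0.38 (Spearman), and with log transcript length 0.43 and 0.45. Over 17181 tested genes with an annotated transcript these were -0.16 and -0.15 for GC content and -0.13 and -0.14 for length. All points come from the same 6 libraries, and genes are not independent replicates, so these are descriptions. A correction of each library for length gave 8 falling and 16 rising of the 40 members (20% and 40%), against 27.5% and 27.7% of all tested genes, while a GC correction left the members at 9 and 10. The median log2 fold change of the members was 0.33 and 0.21 with these corrections, and that of all tested genes 0.026 and 0.038.

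**Figure D5:**
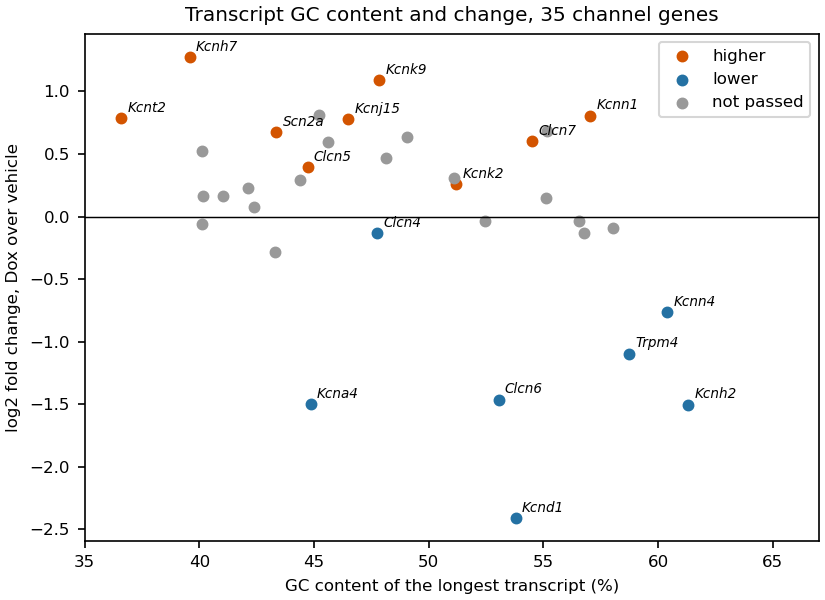
log2 fold change (Dox over vehicle) of 35 of the 37 tested channel genes against the GC content of the longest transcript (%), coloured by the result of the test. Falling genes other than Kcna4 and Clcn4 lie above 50% GC, and rising genes are spread from Kcnt2 at 36.6% to Kcnn1 at 57.0%.

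Genes that work with these channels were counted in 4 lists. Of 27 tested chloride channel partners, other anion channels and volume regulators, 17 fell, 5 rose and 5 did not pass (median log2 fold change -0.29). Besides Ostm1, the smallest p-values were those of Clic1, a chloride intracellular channel protein, with 204 ± 5.56 CPM with Dox and 406 ± 9.16 CPM with vehicle (SD, n = 3 each), and Ttyh2, a tweety-family membrane protein, with 11.3 ± 0.616 and 32.9 ± 1.10 CPM. They fell by 0.99 ± 0.030 and 1.55 ± 0.056 on the log2 scale (SE, edgeR adjusted p = 2.3e-06 and 4.0e-06). Of 12 tested TRP relatives and store-operated calcium entry genes, 6 fell, 1 rose and 5 did not pass (median -0.38). The inositol trisphosphate receptor genes Itpr3 and Itpr1, which release calcium from the endoplasmic reticulum, fell by 0.90 ± 0.048 and 1.39 ± 0.075, and Pkd2, a TRP-related channel of cilia, by 0.52 ± 0.039 on the log2 scale (SE). Of 8 tested sodium channel partners, 2 fell, 1 rose and 5 did not pass (median -0.25). Those that fell were the ubiquitin ligase genes Nedd4l, which held 16.3 ± 0.252 CPM with Dox and 44.3 ± 2.40 CPM with vehicle, and Nedd4, which held 692 ± 17.3 and 970 ± 28.4 CPM (SD, n = 3 each). Both ligases are known to remove sodium channels from the membrane. Of 4 tested potassium channel partners 2 fell and 2 did not pass (median -0.20), Vapb among the falls (log2 -0.33 ± 0.024 SE, edgeR adjusted p = 5.4e-05). These counts stand beside the 28.8% and 25.9% of all tested genes that fell and rose.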

How the data were processed

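RNA sequencing counts of 6 HT22 libraries, 3 Dox and 3 vehicle, were used. Per the submitters' processing notes, the tools were HISAT2 2.1.0, StringTie 1.3.3, DESeq2 and FastQC 0.11.3, and the build GRCm38; their roles are not stated. For the annotation, the strand setting and multi-mapping reads, nothing was given in the sources read. Raw counts were deposited by the authors per gene symbol. Their second table gives, per the file headers, p-values, a test score, a log2 fold change and a signal averaged over normalized libraries; all its called genes have an adjusted p under 0.01.

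Columns were matched to samples by the labels' descriptions. After filterByExpr, TMM scaling (factors 0.970 to 1.03) and dispersion estimation (common variation 12.0%), Dox was set against vehicle with edgeR 4.0.16 in R 4.3.3, without covariates. P-values were adjusted by Benjamini-Hochberg over all 18067 genes. CPM are counts over TMM-scaled library sizes; SE is the log2 fold change over the root of the F statistic. A 0 in a library allows up to 0.0578 to 0.0795 CPM (3 counts), which covers counting error only. The smallest p of an exact permutation test is 0.1 at this size, so it was left out. All 87 symbols matched 1 gene of GENCODE M21, used for position, transcript length and overlaps of at least 50 exonic bases; promoter windows are from RefSeq. The procedure was checked on simulated counts, drawn with the dispersions and library scaling fitted here. Far fewer genes were changed in them than were called in the data, so this cannot check the scaling. Pairs of replicates had a chi-square of 12.1 to 15.1 for each degree of freedom, above sampling noise. Same-numbered libraries' deviations correlated by 0.062, 0.025 and -0.064 over 14652 genes, so numbers were not taken as pairs.

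Members, lists and tests were chosen with earlier results of these data known. Named were the members of at least 1 CPM, members under it past the test with separate groups, and the highest member of any other role; further tested genes under 1 CPM were named after their values were seen. 2 members enter the counts but are not reported one by one here. Alternatives were DESeq2 1.42.0 size factors and Wald test, upper-quartile scaling, limma 3.58.1 voom, other filters, a replicate block, stricter thresholds, length and GC offsets and leaving out each library; the count without exonic overlap was added after seeing the data.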

Additional observations from a re-analysis of the deposited data

How the results depend on the processing

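The counts of members lower (9) and higher (10) stayed within 1.5 times under DESeq2 size factors, the DESeq2 Wald test, limma-voom, upper-quartile scaling (8 and 14), no filter, a filter at 1 CPM, glmTreat against 1.2-fold, an adjusted p under 0.01, and the GC offset; leaving out 1 library gave 8 to 10 lower and 9 to 11 higher. A filter at 5 CPM left 17 members tested, 5 lower and 6 higher, since fewer genes were tested. The length offset gave 16 higher of 40 (40%, against 27.7% of all tested genes), and the cause was not tested. Among the 21 tested members with no exonic overlap, a count added after seeing the data, 8 were lower and 5 higher (38.1% and 23.8%, against 29.3% and 26.3% of all such genes), with a median log2 fold change of -0.038. With the replicate block, used although the labels state no pairing, 9 were lower and 11 higher, and Scn3a passed (log2 0.23, edgeR adjusted p = 0.022). Of 29 named and tested genes, 16 kept direction and side of the threshold under every alternative run. Kcnmb2 passed with the DESeq2 Wald test (adjusted p = 0.010), upper-quartile scaling, the length offset and either CPM filter, Clcn3 and Scn3a with upper-quartile scaling and the length offset, and Kcnq1ot1 with the length offset. Signs turned for genes that did not pass: Trpm7 was 0.033 with upper-quartile scaling, 0.12 with the length offset and -0.151 to 0.062 when 1 library was left out, positive without Dox replicate 3; Kcnj14 was 0.055 and 0.093 with upper-quartile scaling and the GC offset, and -0.132 to 0.142 with 1 library left out, positive without Dox replicate 2 (0.0070) or vehicle replicate 3; Clcn2 and Kcnab2 were 0.012 and 0.094 with the GC offset; and Kcnip4 ranged over -0.073 to 0.36 with 1 library left out, negative without Dox replicate 2. Depth limits the genes under 1 CPM: Kcnk9 rests on 5 to 19 reads per library, and 47 members could not be tested.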

Other observations

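The 47 untested members lay at 0.235 CPM or less on average, with 2 to 63 reads summed over the 6 libraries. In 41 of them at least 1 library had 0 reads, and in 19 at least 5 libraries had 0. They include the delayed rectifier genes Kcnb2 and Kcnq1, with 50 reads each in all, and Kcnd2, an A-type gene of hippocampal dendrites, with 3 reads. Kcns2, a modifier subunit that does not form channels alone, was the highest of them. It had 23, 17 and 10 reads in Dox libraries, against 6, 3 and 4 in vehicle libraries, and these groups did not overlap. Those of Kcnip2, Kcnq1 and Kcnk10 did not overlap either, but all of these genes were under the filter for the edgeR test. In the authors' deposited table the adjusted p was 0.042 for Kcns2, 0.17 for Kcnip2 and 0.19 for Kcnq1, and missing for Kcnk10.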
